A study of Mus musculus with 2 samples.

Results

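*Gnas* and its antisense RNA *Nespas* were described in fibroblasts of reciprocal mouse crosses, by the level of RNA along each exon and intron on either DNA strand. These genes, 2 of the 37310 in the annotation, were taken as a locus because they overlap head to head on chromosome 2 of mm9. *Gnas* lies on the (+) strand at chr2:174109821-174172245 and *Nespas* on the (−) strand at chr2:174106738-174120937. The data are strand-specific RNA deep sequencing of 1 MEF line per cross. JXO came from a JF1 mother and a TgOG2 father, and OXJ from a TgOG2 mother and a JF1 father. Both lines were cultured at early passage from a female embryo collected at 13.5 dpc, after the head and inner organs had been taken off, and embryos of both crosses inherited the GOF18ΔPE-EGFP transgene from the OG2 parent. JF1 is an inbred strain of the subspecies molossinus, and OG2 derives from common laboratory strains. Each cross thus has 1 line, 1 library and no replicate, so no difference between the crosses was tested, and every interval below is a 95% interval for counting error only.

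*Gnas* encodes the α subunit of the stimulatory G protein (Gsα), which couples hormone receptors to adenylyl cyclase. The gene has alternative first exons, and the RNAs that start at them all splice onto the same exon 2. Nesp, the most upstream, gives a neuroendocrine secretory protein and is known to be transcribed from the maternal chromosome. XL gives a long form of the α subunit and exon 1A a non-coding RNA, and both are known as paternal transcripts. The main exon 1 gives Gsα and is active on both chromosomes in most tissues. *Nespas* is a paternal non-coding RNA that starts upstream of XL and runs backwards through Nesp, and the microRNA genes *Mir296* and *Mir298* lie beyond its end.

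The letters at the splice sites are shown because the RNAs from all the first exons are joined to 1 acceptor. In the lines below, taken from the mm9 sequence of the (+) strand, exon bases are in capitals and intron bases in lower case, and each line holds 30 bases around the site. The Nesp donor is at chr2:174110964-174110993, the XL donor at chr2:174125704-174125733, the 1A donor at chr2:174153428-174153457, the donor of the main exon 1 at chr2:174155921-174155950 and the acceptor of exon 2 at chr2:174159698-174159727. The Nesp donor printed is the end of Nesp exon 2, chr2:174110105-174110978, and not of Nesp exon 1.
Nesp donor: TTTTCATGGATAAAGgttagttgccctgac
XL donor: GCCTGCTGCTTCTAGgtaatgcggcagctt
1A donor: GCGTCTCACTCACATgtaagtccgggagcg
exon 1 donor: GCCTGCTGCTGCTGGgtaagggcggcccgg
exon 2 acceptor: actttcctttctcagGTGCTGGAGAGTCTG

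The 250 bases before 3 of the starts are shown because these promoters stand beside very different RNA levels. They were credited to RefSeq (GRCm38.p6) and were found letter for letter in mm9, before the start sites of Nesp at chr2:174109571-174109820, of 1A at chr2:174153000-174153249 and of exon 1 at chr2:174155257-174155506. The 1A stretch ends at the RefSeq start, chr2:174153250, whereas exon 1A as measured below begins at chr2:174153071 in the annotation. Much of this stretch thus lies inside the measured exon 1A. Every CG, the pair of bases that DNA methylation marks, is in capitals. CG occurred 14 times before Nesp, 21 times before 1A and 29 times before exon 1. Of 32851 RefSeq promoters cut to the same length, 70.6%, 83.7% and 93.2% held fewer CG than these.
Nesp promoter: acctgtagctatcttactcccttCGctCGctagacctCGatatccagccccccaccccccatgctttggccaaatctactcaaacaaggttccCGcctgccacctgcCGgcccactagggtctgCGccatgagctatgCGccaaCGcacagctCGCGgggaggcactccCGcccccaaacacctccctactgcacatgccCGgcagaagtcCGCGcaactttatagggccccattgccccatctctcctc
1A promoter: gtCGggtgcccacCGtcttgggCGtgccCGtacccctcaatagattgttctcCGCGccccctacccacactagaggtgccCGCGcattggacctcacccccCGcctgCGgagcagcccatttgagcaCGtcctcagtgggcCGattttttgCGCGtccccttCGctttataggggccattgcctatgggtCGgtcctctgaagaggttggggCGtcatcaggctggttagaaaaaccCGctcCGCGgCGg
exon 1 promoter: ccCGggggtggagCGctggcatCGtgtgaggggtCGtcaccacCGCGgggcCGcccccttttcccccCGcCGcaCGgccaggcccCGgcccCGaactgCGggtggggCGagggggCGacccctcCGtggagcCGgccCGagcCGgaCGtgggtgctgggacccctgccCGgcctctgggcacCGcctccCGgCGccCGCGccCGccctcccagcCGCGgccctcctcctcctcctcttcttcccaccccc

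The mature microRNAs within the (−) transcription downstream of *Nespas* are given from RefSeq (GRCm38.p6), with the seed, bases 2 to 8, in capitals. No pair of the 4 shares a seed.
mmu-miR-296-5p: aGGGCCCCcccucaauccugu
mmu-miR-296-3p: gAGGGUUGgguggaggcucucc
mmu-miR-298-5p: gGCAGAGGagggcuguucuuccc
mmu-miR-298-3p: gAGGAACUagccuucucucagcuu

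Levels are given as mean scaled depth, the number of reads over a base per 50000000 aligned reads, averaged over the bases of an exon or intron. The depth of 1 read is 0.652 in JXO and 0.579 in OXJ on this scale. The deposited tracks hold 5837225 reads of JXO and 5785447 reads of OXJ, 7.61% and 6.70% of the aligned reads. They lie in 618 stretches of the genome, where gaps of at most 50 kb between covered bases were bridged, and 1718 of the annotated genes lie wholly inside a stretch, some without a read. *Gnas* and *Nespas* are among these. Why these stretches were kept is not given in the sources used here, so every percentile and median over genes describes this selected set. Of the fibroblast markers, 3 of 15 were inside the tracks, with levels in JXO and OXJ of 583 and 388 for the collagen *Col1a2*, 22.9 and 25.9 for the proteoglycan *Dcn* and 18.9 and 15.5 for *Lum*. Of 8 neural markers 2 were inside: the filament gene *Nes* had 340 and 155 and the transcription factor *Sox2* 1.27 and 1.22. The part that such cells play in the levels below was not tested. Markers of endocrine, muscle, endothelial, epithelial, blood and adipose cells were not analysed here, since none lay inside the tracks. In bulk RNA, fewer cells of a type and less RNA per cell cannot be told apart.

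*Gnas* was strongly expressed in both lines, almost wholly as the form that starts at exon 1. Over the 1405 bases of the shared exons 2 to 12 its (+) level was 1384 (1361 to 1406) in JXO and 942 (924 to 959) in OXJ. The introns between them had a level of 4.86 (4.46 to 5.29) and 3.48 (3.16 to 3.82), so the shared exons stood 285-fold (261 to 311) and 271-fold (246 to 299) above them. Exon 1A had 2.44 (0.975 to 5.03) and 4.23 (2.29 to 7.15), Nesp exon 1 had 1.06 (0.0791 to 4.46) and 0.217 (up to 2.70), and XL had 0.0276 (up to 0.258) in JXO and no read in OXJ. Reads on (+) covered only 46.2% and 51.1% of the 372 bases of exon 1A in JXO and OXJ. Its level averages over the uncovered bases too, which lower it. *Nespas*, on the (−) strand, had 3.55 (3.20 to 3.92) in JXO and 2.11 (1.86 to 2.38) in OXJ over the whole gene. In both libraries Gsα exons were thus high, 1A, Nesp and *Nespas* low, and XL at or next to 0.

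**Figure D1:**
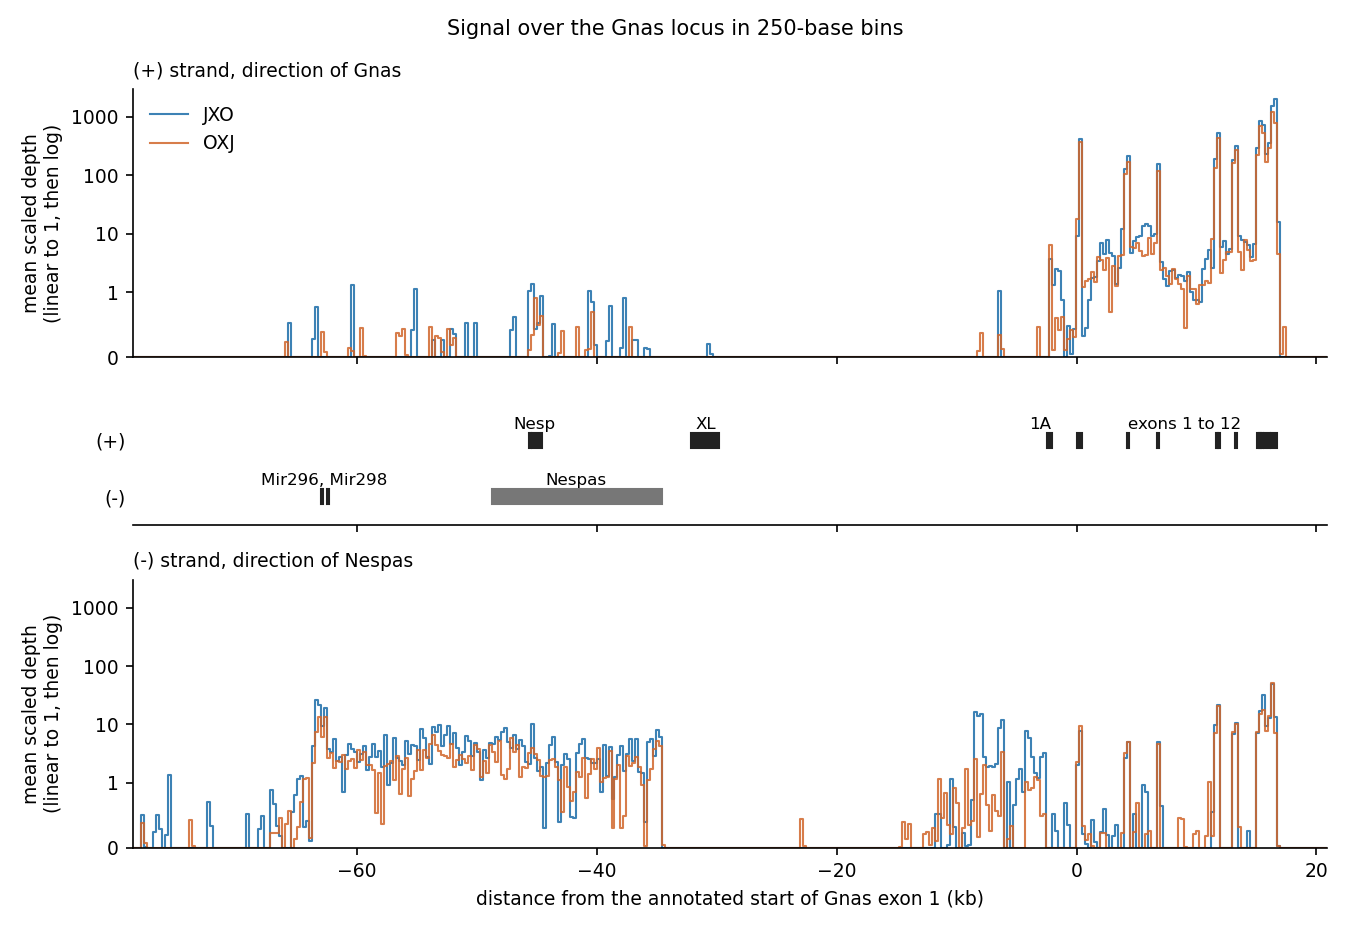
Mean scaled depth in 250-base bins on the (+) strand (top) and the (−) strand (bottom) in JXO (blue) and OXJ (orange), against the distance from the start of *Gnas* exon 1 in kb; the depth axis is linear to 1 and logarithmic above. The middle strip marks the exons of *Gnas*, the span of *Nespas* and both microRNA genes. The (+) signal lies to the right of 1A in both libraries, apart from scattered bins below 2 elsewhere, the (−) signal fills *Nespas* and continues to the left past the microRNA genes, and a further block of (−) signal stands to the left of 1A, higher in JXO.

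The alternative first exons were compared per base, so that their length did not enter. The intervals of these shares count each level as if over the 429 bases of exon 1. They are thus too narrow for the shorter Nesp exon 1 and 1A, and too wide for the longer XL. Exon 1 held 98.6% (97.6 to 99.3) of the summed first-exon level in JXO and 98.1% (96.9 to 98.9) in OXJ. Exon 1A held 0.962% (0.417 to 1.89) and 1.82% (1.04 to 2.95), and the intervals of the crosses overlapped. The uncovered bases of 1A lower these shares as well. Nesp exon 1 held 0.417% (0.10 to 1.13) in JXO and 0.0935% (up to 0.605) in OXJ. Nesp exon 2, which ends at the printed Nesp donor, is not in these shares and had a (+) level of 0.820 in JXO and 0.664 in OXJ. XL held 0.0109% (up to 0.464) in JXO, from 100 read bases, which is 1 read. In OXJ it held 0 of the reads over 2359 bases, where 3 pairs of reads would have given a level of 0.147.

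Splice sites gave the same order of the first exons from the bases next to them, which hold reads of the exon ends too. The depth leaves out the bases that a spliced read skips, so it drops at a donor and climbs at an acceptor by the reads that join them. At the acceptor of exon 2 the depth climbed by 1163 in JXO and 993 in OXJ, taken over 10 bases on either side. The donor of exon 1 dropped by 1169 and 992, which is 99.4% and 99.1% of the drops at all donors annotated to join exon 2. The 1A donors dropped by 5.87 and 7.18, the Nesp donors by 1.30 and 2.03, and the XL donors by 0 in both libraries. As 1 read is 0.652 in JXO and 0.579 in OXJ, the 1A and Nesp drops rest on few reads, and they have no interval. The Nesp drop was larger in OXJ, while Nesp exons 1 and 2 had the higher (+) level in JXO. All the drops together were 1.01 times the climb at exon 2 in either library.

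**Figure D2:**
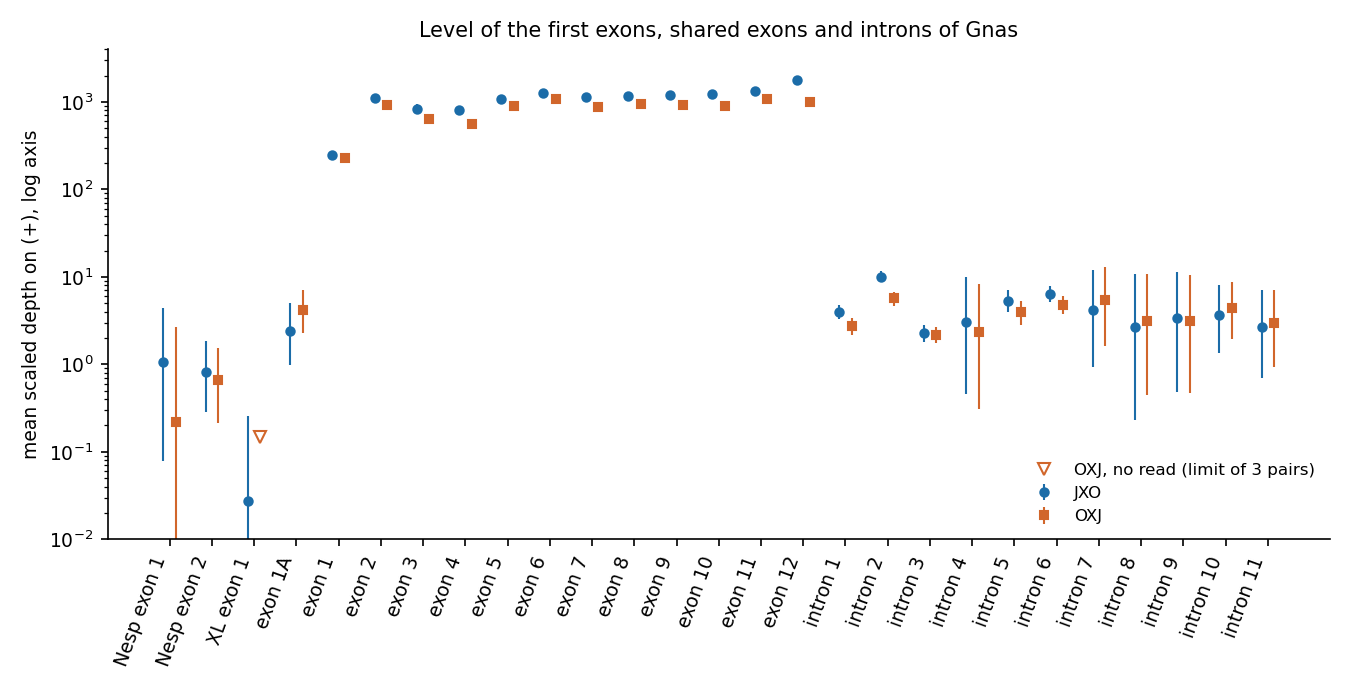
Mean scaled depth on the (+) strand (log axis) of the first exons, shared exons and introns of *Gnas* in JXO (blue circles) and OXJ (orange squares), with 95% counting intervals as bars, cut off at 0.01. The open triangle is the limit that 3 pairs of reads set for XL in OXJ, where there was no read. Exons 2 to 12 lie between 565 and 1799, the introns between 2.15 and 9.99, and 1A, at 2.44 and 4.23, is at the height of the introns.

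Exon 1 itself was unevenly covered. In the last 50 bases before its donor the level was 1074 in JXO and 933 in OXJ, near that of exon 2 with 1119 and 918. It was lower upstream, 278 and 262 between 100 and 150 bases from the donor and 71.8 and 66.7 between 150 and 200. The crosses parted farther upstream, where OXJ was the higher, with 17.7 in JXO and 38.0 in OXJ between 200 and 250 bases from the donor and 21.5 and 42.2 between 250 and 300. Over these 100 bases the log2 ratio of JXO over OXJ was −1.48 (−2.46 to −0.57) with the median gene set equal, against −0.27 (−0.42 to −0.11) over the last 100 bases of the exon. Between 300 and 350 bases from the donor 5.97 and 7.94 were left, and in the first 91 bases of the annotated exon 0.680 and 0.375. GC content was high along this exon, 76.9% over its 429 bases against 47.9% in exon 2, and reached 94.0% in the bin between 150 and 200 bases from the donor. The part of base composition in this gradient was not tested. The mean level of exon 1, 250 (233 to 267) and 228 (213 to 244), is therefore 22.3% and 24.8% of that of exon 2, while its last 100 bases reach 0.780 (0.698 to 0.871) and 0.839 (0.749 to 0.939) of it.

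Among the shared exons, which encode most of Gsα, exon 4 had the lowest level in both libraries, with 808 (727 to 896) in JXO and 565 (501 to 635) in OXJ, though its interval overlaps that of exon 3 below. The highest was exon 12, the last, with 1799 (1757 to 1842) in JXO, and exon 6, with 1088 (1019 to 1160), in OXJ. Exon 2 had 1119 (1033 to 1210) and 918 (845 to 996). Between exons 6 and 10 the levels lay within 1148 to 1272 in JXO and 884 to 1088 in OXJ. JXO was above OXJ in 11 of 11 shared exons as deposited. With the median gene set equal, JXO was higher in 3 of 11, so the order of the crosses over most shared exons turned with the scaling.

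Exon 3 is the cassette exon that separates long from short Gsα, 45 bases that are either kept or skipped. It is printed with 15 intron bases on either side, at chr2:174162233-174162307 of mm9, exon bases in capitals, because its level is compared with its neighbours below.
exon 3: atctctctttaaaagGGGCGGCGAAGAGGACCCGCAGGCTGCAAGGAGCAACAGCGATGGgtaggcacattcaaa
Exon 3 had a level of 836 (742 to 938) in JXO and 629 (553 to 713) in OXJ. Relative to the mean of exons 2 and 4, this is 0.867 (0.758 to 0.990) and 0.848 (0.733 to 0.979). The intervals of the crosses overlap over most of their range, and both end just below 1. Exon 3 was itself above exon 4, which had 808 and 565, and the other shared exons differ in level too. The share of short Gsα thus cannot be read from this ratio. Exon 4 follows with a choice of acceptors 3 bases apart, and the extra bases are in capitals at chr2:174167137-174167166.
exon 4 acceptors: tttcaatcccactgTAGtgagaaggccact
The extra bases had 24 reads in JXO and 17 in OXJ, and the intron before them 1.67 and 6. With the intron depth subtracted, 1.96% (1.23 to 2.94) of the depth that entered exon 4 included the extra bases in JXO and 1.16% (0.58 to 2.06) in OXJ. The extra bases thus held a small share of the aligned depth in both lines. In the printed line the bases before them are TG, while the other acceptor follows AG. Whether TopHat could place reads spliced after TG was not tested, so the choice of acceptor cannot be read from these shares. Exon N1, an alternative end for a short neural transcript of *Gnas* that lies in intron 3, had 2.23 (0.959 to 4.41) and 1.82 (0.747 to 3.69). That is 0.988 (0.412 to 2.04) and 0.845 (0.337 to 1.79) times the level of intron 3, so an N1 transcript was not detectable above the intron at this depth.

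Introns of *Gnas* held little signal, and it was on the strand of the gene. Intron 2 was the highest, with 9.99 (8.62 to 11.5) in JXO and 5.66 (4.69 to 6.76) in OXJ, and intron 3 the lowest, with 2.26 (1.80 to 2.79) and 2.15 (1.73 to 2.64). Short introns had wide intervals, such as intron 8 with 2.66 (0.231 to 10.7) and 3.17 (0.447 to 10.8). Its intervals overlap those of introns 2 and 3, so its rank cannot be read. The long stretch from XL to 1A, 27352 bases, had only 0.00953 (0.00115 to 0.0344) and 0.0127 (0.00262 to 0.0371) on (+), from 400 and 600 read bases. Between Nesp and XL the (+) level was 0.111 (0.0541 to 0.20) and 0.0468 (0.0152 to 0.109). The (+) signal behind Nesp and XL was thus far below that of the introns after exon 1. Between 1A and exon 1 the level was 0.975 (0.551 to 1.60) in JXO and 0.366 (0.141 to 0.773) in OXJ.

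The last exon had a different shape in the crosses. In JXO the depth climbed towards the end, from 1606 (1550 to 1664) in the 250 bases before the last 250 to 1998 (1936 to 2063) in the last 250. In OXJ it declined, from 1250 (1203 to 1298) to 755 (719 to 793). The last part was 1.24 times (1.19 to 1.31) the part before in JXO and 0.604 times (0.568 to 0.643) in OXJ. In the 50 bases that end the annotated gene the level was 1312 in JXO and 325 in OXJ, and in the 250 bases after it 0.133 and 0.595, so nearly all signal ended with the annotated gene in both. GC content was 31.6% in the last 250 bases and 50% in the 250 before.

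**Figure D3:**
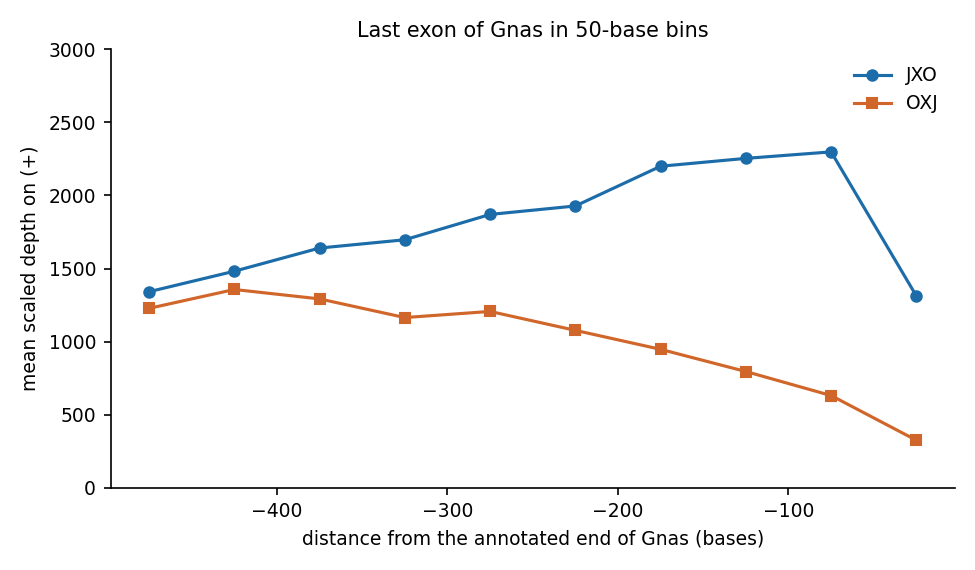
Mean scaled depth on (+) in 50-base bins of *Gnas* exon 12, against the distance from the annotated end of the gene in bases, for JXO (blue circles) and OXJ (orange squares), without error bars. The libraries start near each other, at 1341 and 1228 in the bin farthest from the end, and part to 2298 in JXO and 631 in OXJ between 50 and 100 bases from the end.

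Other genes put this difference in proportion. Among 329 genes whose last exon has at least 500 bases and enough reads, 6.99% differed more than 2-fold between the libraries in the ratio of the last to the previous 250 bases. *Gnas* had a log2 ratio of 0.32 in JXO and −0.73 in OXJ, and the median gene −0.48 and −0.56. Its difference of 1.04 stood at percentile 97.3, against 0.04 for the median gene. The measure was chosen after the exon had been seen, and the difference rests on 1 library per cross. By this measure it was JXO, at percentile 87.5 of the genes, that lay farther from the median gene than OXJ, at 37.1.

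*Nespas* was transcribed along its whole length in both libraries. The spliced exons had a level of 7.30 (6.08 to 8.69) in JXO and 3.68 (2.88 to 4.64) in OXJ, and the introns 2.84 (2.51 to 3.21) and 1.81 (1.56 to 2.09). Exons were thus 2.57 (2.06 to 3.19) and 2.03 (1.53 to 2.69) times the introns, against 285 and 271 in *Gnas*. At least 1 read on (−) covered 90.9% and 86.5% of its 14200 bases. Exon 1, where the RNA starts, had 9.32 (6.10 to 13.6) and 6.19 (3.76 to 9.60), exon 3 11.9 (7.18 to 18.7) and 4.49 (1.94 to 8.85), and the last exon 6.41 (4.92 to 8.21) and 2.67 (1.79 to 3.83). Exon 4 was the exception in order, with 3.29 (0.859 to 8.60) in JXO and 5.81 (2.44 to 11.7) in OXJ, and its intervals overlap. JXO was higher in 7 of the 9 exons and introns as deposited and in 6 of 9 with the median gene set equal.

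The start of *Nespas* was sharp. The farthest covered base on (−) lay 24 bases inside the annotated start in JXO and 69 bases beyond it in OXJ. From the annotated start to XL, 2422 bases, JXO had no read, where 3 pairs would have given 0.161. OXJ had 0.0203 (up to 0.217) there, all of it in the 69 bases just beyond the annotated start. Over XL exon 1 neither library had a read on (−), with limits of 0.166 and 0.147. Both strands were thus at or near 0 over XL, between *Nespas* on one side and the 1A start on the other.

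Where *Nespas* runs through Nesp, the antisense strand was the higher. Over Nesp exons 1 and 2, 1063 bases, the (−) level was 3.19 (2.08 to 4.67) in JXO and 2.84 (1.85 to 4.16) in OXJ, and the (+) level 0.862 and 0.584. The (−) strand held 78.7% (61.0 to 91) of the signal in JXO and 82.9% (65.3 to 93.9) in OXJ. Over the whole overlap of the genes, 11117 bases, it held 93.5% (90.0 to 96.1) and 94.7% (90.5 to 97.4), from 528 and 369 reads. Nesp exon 2, with 0.820 (0.285 to 1.84) and 0.664 (0.216 to 1.55) on (+), was higher than the (+) signal between Nesp and XL. The interval of Nesp exon 1 overlapped that of this signal in both libraries, and Nesp exon 3 had no read on (+) in either library, with limits of 4.07 and 3.62. In JXO, 1406 sense read bases lay on Nesp exons 1 and 2 and 2100 between Nesp and XL. Without the bases that *Nespas* exons also use, the (−) share was 67.0% and 70.5%.

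Transcription on (−) did not stop at the annotated end of *Nespas*. In the first 14 kb beyond it the level was 4.37 (3.98 to 4.78) in JXO and 2.73 (2.44 to 3.04) in OXJ, 1.54 (1.32 to 1.80) and 1.51 (1.26 to 1.81) times that of the *Nespas* introns. On this strand 97.9% (96.2 to 99) and 97.4% (95.1 to 98.8) of the signal was found there. The 1 kb bin with the highest level was bin 15 in both libraries, with 15.4 (12.8 to 18.5) and 7.34 (5.65 to 9.39). It holds *Mir296*, and *Mir298* lies in bin 14. The bin after it had 0.536 and 0.810. Taking 5 empty bins in a row as the end, traces reached 33 kb in JXO and 19 kb in OXJ, but both ends rest on scattered reads, and OXJ had reads again up to bin 30, with 0.0967 there against 0.127 in JXO. JXO was higher in 16 of the first 19 bins as deposited and in 12 of 19 with the median gene set equal.

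**Figure D4:**
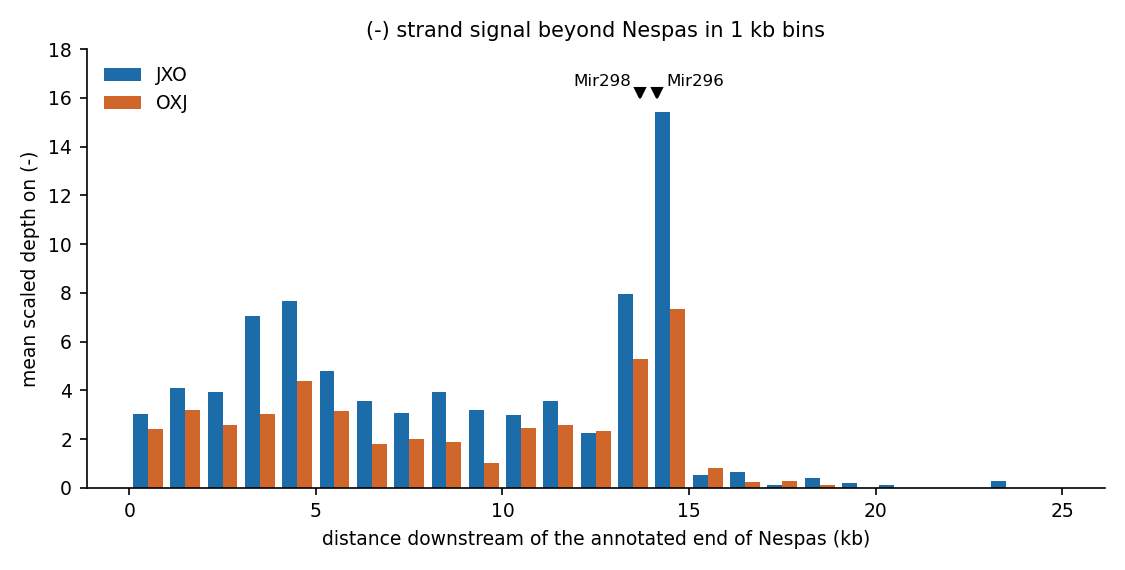
Mean scaled depth on (−) in 1 kb bins, against the distance downstream of the annotated end of *Nespas* in kb, for JXO (blue) and OXJ (orange), with the places of *Mir298* and *Mir296* marked. Both libraries keep a level of 1.02 to 7.66 over the first 13 bins, are highest in the bin at 14.5 kb, with 15.4 and 7.34, and are below 1 beyond it.

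The microRNA genes themselves held almost no reads. Over the 79 bases of the *Mir296* hairpin there were 115 read bases in JXO and 12 in OXJ, a level of 0.949 and 0.0879. Over the 82 bases of *Mir298* there were 44 and 15, a level of 0.350 and 0.106. Within 500 bases on either side of the pair the (−) level was 12.8 (10.8 to 15) and 7.18 (5.81 to 8.78), 2.92 (2.42 to 3.52) and 2.63 (2.07 to 3.32) times that of the first 14 kb. The signal was thus highest around the hairpins that carry the mature sequences printed above, and low on the hairpins. Mature microRNAs are shorter than the reads and were not measured in these libraries.

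A further (−) signal lay upstream of 1A, in the direction away from it, where the annotation holds no gene on this strand. In 1 kb bins it ran 10 kb from 1A in JXO and 13 kb in OXJ before 5 empty bins in a row. Over the 10 kb its level was 2.76 (2.40 to 3.16) in JXO and 0.666 (0.505 to 0.862) in OXJ. Over the 6 kb next to 1A, it was 4.31 (3.73 to 4.95) and 0.714 (0.503 to 0.985). Both extents were chosen after seeing the data. JXO was higher in 12 of the 12 windows of 500 bases in these 6 kb as deposited and in 11 of 12 with the median gene set equal. In the 12 windows from 12 to 6 kb upstream the order turned, with 3 higher in JXO and 8 in OXJ as deposited, at levels of 2.15 or less. The highest window, between 6 and 5.5 kb upstream, had 15.2 in JXO and 0.744 in OXJ, and the one between 4 and 3.5 kb 9.62 and 1.96. Relative to *Nespas* over its whole gene, the level of the 6 kb was 1.21 (1.02 to 1.45) in JXO and 0.339 (0.234 to 0.480) in OXJ. Within exon 1A there was no read on (−) in either library, and on (+) 1A was the lower in JXO, with 2.44 against 4.23.

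**Figure D5:**
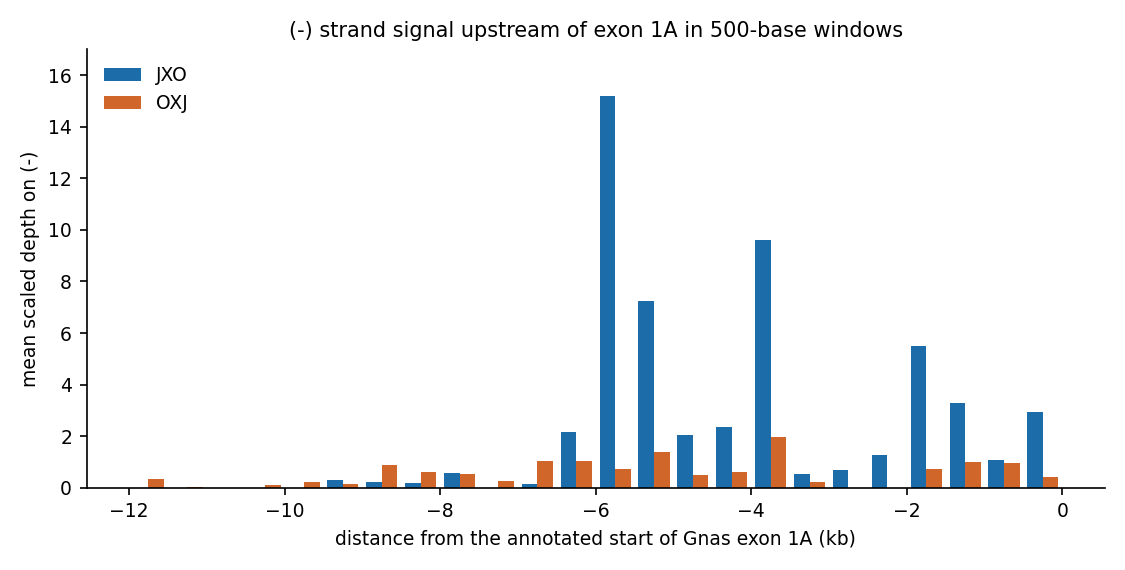
Mean scaled depth on (−) in 500-base windows upstream of exon 1A, against the distance from the annotated start of 1A in kb, for JXO (blue) and OXJ (orange). JXO reaches 15.2, 9.62 and 7.25 in its 3 highest windows, and OXJ stays at or below 1.96.

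Over the exons of Gsα a small (−) signal followed the exons. On exons 1 to 12 the (−) strand had a level of 28.6 in JXO and 25.9 in OXJ, 2.50% (2.26 to 2.75) and 3.23% (2.93 to 3.55) of the signal on both strands. On the introns it had 0.146 and 0.119, with shares of 2.91% (1.68 to 4.67) and 3.31% (1.86 to 5.42). Of the coding genes inside the tracks with more signal on one strand, 798 in JXO and 800 in OXJ, the median had 97.0% and 96.1% of its exon signal on its own strand, so the shares of *Gnas*, 97.3% and 96.6% over all its exons, are near the median. The annotation also places the antisense gene *AF085738* over these exons. Its level on (−), 34.4 and 31.1, cannot be told apart from this small share of *Gnas*, since 2.51% and 3.22% of the signal over it was on its strand.

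The crosses were then compared after setting the median of 824 genes equal, since their median log2 ratio of JXO over OXJ was 0.45 as deposited. The shared exons of *Gnas* were at 942 in OXJ and 1384 in JXO, a log2 ratio of JXO over OXJ of 0.11 (0.07 to 0.14), or 0.56 as deposited and 0.37 with equal totals. Without exon 12 the ratio was −0.10 (−0.15 to −0.06), or 0.34 as deposited, so its direction turned with the scaling. Over all exons *Gnas* was at percentile 58.0 of the genes, with 0.08. Past 2-fold in either direction were 8.25% of the genes, and neither *Gnas* nor *Nespas* was among them. *Nespas* had 0.28 (0.07 to 0.54) over the whole gene and 0.32 (−0.05 to 0.73) over its exons, at percentile 79.0. Its downstream RNA had 0.27 (0.10 to 0.47). Exon 1A had −1.22 (−2.81 to 0.17), and the (−) RNA in the 10 kb upstream of it 1.46 (1.18 to 2.05). The 6 kb next to 1A had 1.99 (1.63 to 2.69), or 2.44 as deposited. The last 250 bases of *Gnas* had 0.96 (0.87 to 1.04) and the 250 before them −0.09 (−0.16 to −0.01).

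Genes around *Gnas* gave a frame for its level. Of 25 annotated genes within 500 kb, 14 lay inside the tracks, *Gnas* and *Nespas* included. The lysosomal protease *Ctsz* had 203 (195 to 212) in JXO and 146 (139 to 152) in OXJ, and the mitochondrial protein gene *Slmo2* 172 (165 to 179) and 113 (108 to 118). *Gnas*, over the 11186 bases of all its annotated exons, used or not, had 184 (181 to 187) and 128 (125 to 130), so its order among them changes once the unused first exons are left out. The ATP synthase subunit *Atp5e* had 46.7 and 34.1, the aminopeptidase *Npepl1* 36.2 and 28.6, *Th1l*, a subunit of the negative elongation factor, 25.5 and 19.3, and the syntaxin *Stx16* 23.2 and 15.7. The platelet tubulin *Tubb1* had 0 and 0.0823, and the pseudogenes *Rpl30-ps5* and *Gm14385* at most 0.489. With the median gene set equal, the ratios of the 6 expressed neighbours ran from −0.11 at *Npepl1* to 0.16 at *Slmo2*, and that of *Gnas*, 0.08, lies among them.

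The coding genes nearest to *Gnas* were sought by the distance of log2 levels over all annotated exons in both libraries. They were the actin-related *Actr1b* with 194 and 130, the cyclin *Ccnd1* with 178 and 136 and the transcription factor *Nfe2l1* with 197 and 124. The shared exons of *Gnas* stood higher, with 1384 and 942, so these genes do not match the level of its exons in use. The differences of *Actr1b*, *Ccnd1* and *Nfe2l1* between JXO and OXJ in the ratio at the 3′ end were 0.48, 0.24 and 0.45, below the 1.04 of *Gnas*. For *Nespas*, other antisense RNAs of imprinted genes were set beside it. *Airn*, antisense to *Igf2r*, had 3.11 (2.49 to 3.84) and 1.86 (1.41 to 2.41) over its exons, and *Igf2as* 10.3 (9.33 to 11.3) and 4.18 (3.61 to 4.81), against 5.84 (4.91 to 6.89) and 3.38 (2.73 to 4.15) for *Nespas*. All these were higher in JXO, with ratios of 0.26, 0.83 and 0.32 once the median gene was set equal. On their own strand *Airn* had 97.3% and 97.2% of its signal and *Nespas* 94.5% and 95.2%, while *Igf2as* had 69.8% and 58.9%. The reason for the lower share of *Igf2as* was not tested.

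Gsα acts through adenylyl cyclase and cAMP, and 7 of 75 genes on a list of G protein subunits, cyclases, kinases, phosphodiesterases and receptors of this pathway lay inside the tracks. Of these, 1 of 7 was past 2-fold and higher in JXO, against 8.25% of the 824 genes tested in either direction, and none was past 2-fold and lower. It was *Gng11*, a γ subunit of G proteins, with 175 in JXO and 42.5 in OXJ, a ratio of 1.60 with the median gene set equal. *Atf1*, a transcription factor that cAMP signalling activates, had 34.7 and 26.2, a ratio of −0.04. The cyclase *Adcy6* had 30.1 and 28.8, a ratio of −0.38, and the phosphodiesterase *Pde4d*, which degrades cAMP, 16.6 and 9.75, a ratio of 0.31. *Crem*, a transcription factor of the same family as *Atf1*, had 7.25 and 4.17, and *Rapgef3*, an exchange factor that binds cAMP, 3.73 and 5.02. The median ratio of the 7 was −0.04, near that of the median gene.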

How the data were processed

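Total RNA of 1 JXO and 1 OXJ MEF line, freed of ribosomal RNA, was made into dUTP libraries that keep the strand, and sequenced as paired reads of 100 bases. The submitters' processing notes name CASAVA 1.9 and TopHat 1.2.0 and the build mm9, and a read could align at 10 loci at most. The deposited values are log2 of the depth at each base, which the authors had scaled to 50000000 aligned reads and raised by 1, in 1 track per strand. Tracks named forward hold (−) RNA. With that assignment, 718 of 798 coding genes (90.0%) in JXO and 716 of 800 (89.5%) in OXJ were higher on their own strand.

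The deposited log2 values were turned back into depth. Every base held a whole number of reads (largest relative deviation 3.61e-14), and the read bases of each track were a multiple of 100, so skipped intron bases are not counted. Genes and exons were those of GENCODE M1, on the same build. Overlapping first exons were joined. Of these, the most upstream was taken as Nesp, the longest as XL, the one nearest to exon 2 as exon 1, and that between XL and exon 1 as 1A. Neighbouring covered bases at most 50 kb apart form 1 stretch, which gave 618 stretches of 63.7 Mb. Genes wholly inside them were measured by the depth of their exons in the annotated direction. Genes with at least 10 reads in either library entered the ratios.

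Levels have exact Poisson intervals, shares Clopper-Pearson and ratios binomial intervals, all at 95% and all counted in pairs of reads (200 read bases). For the shares of the first exons, the pairs were rescaled to the length of exon 1. They cover counting error only. Where no read was found, 3 pairs set the limit. Ratios are log2 of JXO over OXJ with a pseudocount of 0.1 scaled depth (none in their intervals), less the median gene, and 2-fold was the limit for a call. The ratio step was tested on simulated data. No p-value is given, as each cross is 1 library. Genes were named by a rule: both members with their exons, *Mir296* and *Mir298*, genes within 500 kb, the 3 coding genes nearest in level, the antisense RNAs *Airn* and *Igf2as*, and the 4 highest members of the G protein and cAMP list. The other members of that list named were chosen after their values were seen, and 1 is not reported here. *Kcnq1ot1* was in that rule and is not analysed here, since its name was not matched. The members and lists were chosen with earlier results of these data known. The alternatives changed the summary over bases, the bases taken, the low values, the neighbours of exon 3, the scaling between libraries and the pseudocount. Alleles were not analysed here, since the tracks do not mark bases that differ between the strains. Intervals came from scipy 1.17.1 and figures from matplotlib 3.10.9, run with pandas 2.3.3 and numpy 2.4.6 under Python 3.11.15.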

Additional observations from a re-analysis of the deposited data

Results flagged for a closer look

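The (−) signal in the 6 kb upstream of exon 1A stands out because it lies outside every exon annotated on that strand and outside the comparisons that the locus was chosen for. It had a level of 4.31 in JXO and 0.714 in OXJ, above the (+) level of 0.0435 and 0.0579 in the same 6 kb. Over 10 kb it had 2.76 and 0.666. The 6 kb rest on 39653 read bases in JXO and 7405 in OXJ. The difference between the crosses was not tested, since each has 1 library.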

How the results depend on the processing

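No paired analysis was possible because each cross has 1 library, and for the same reason none could be left out. Of 96 values under alternative settings, 52 stayed within the counting interval of the reported value and 44 left it; an interval of deep counts is narrow, so small moves leave it. The mean of the log2 values gave 1307 and 891 for the shared exons of *Gnas* (JXO, then OXJ, as in all pairs below), 2.70 and 1.63 for *Nespas*, 37.4 and 41.8 for exon 1, and 1.94 for 1A in OXJ. The median base gave 1288 and 975 for the shared exons, 2.61 and 1.74 for *Nespas*, 22.2 and 45.2 for exon 1, 3.26 and 2.89 for the introns, 0 and 0.579 for 1A, and 0 for XL in JXO and Nesp in OXJ. The order of the crosses in exon 1 is turned by both. Trimming 25 bases gave 1549 and 993 for the shared exons and 206 and 193 for exon 1. With bases of 1 read set to 0, XL in JXO and Nesp in OXJ came to 0. The share of exon 1 among the first exons was 99.4% and 99.1% by the drop at the donors, and 99.6% in JXO with the intron subtracted. Counted by covered bases, the (−) share over Nesp was 56.8% and 60.8%. The median of 100-base bins gave 2.93 and 2.02 downstream of *Nespas* and 0.864 and 0.397 for the (−) RNA in the 10 kb upstream of 1A, whose 6 kb next to 1A had 4.31 in JXO against 2.76 over 10 kb. For the end of *Gnas*, the last 250 bases were 1.73 and 0.832 times exons 2 to 11, and the last 100 bases 1.01 and 0.403 times the 100 before the last 250. These alternatives for the end of *Gnas* and for the (−) RNA upstream of 1A were chosen after seeing the data. The ratio of the shared exons was 0.56 as deposited, 0.37 with equal totals and 0.18 with a pseudocount of 1, and that of *Nespas* 0.72 as deposited and 0.54 with equal totals. The cause of these moves was not tested. Depth limits the first exons other than exon 1: Nesp exon 1 rests on 306 and 71 read bases and XL on 100 and 0, so their order between crosses cannot be read.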
